A study of Mus musculus with 6 samples.

Results

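The genes of G2, mitosis, the kinetochore and the spindle were followed after RNA interference against the ubiquitin ligases Ring1a and Ring1b. They are 55 genes, taken by symbol from the 20325 rows of the deposited table, and all 55 were among the 12085 genes tested. RNA was sequenced from parental C3H10T1/2 cells, a multipotent mesenchymal line derived from C3H mouse embryos, at passage 10 to 15. The 3 knockdown samples were treated with small interfering RNAs (siRNAs) against Ring1a and Ring1b together, and the 3 control samples with a scrambled siRNA. All 6 samples share the same parental line and serum medium, and the time from siRNA treatment to harvest was not given in the sources used here. The ligases are products of Ring1 and Rnf2 and form the catalytic core of Polycomb repressive complex 1, which ubiquitinates histone H2A and represses developmental genes.

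Cells that pass through G2 build up cyclin B and Cdk1, enter mitosis when Cdc25 phosphatases and Polo and Aurora kinases switch that pair on, and attach chromosomes to the spindle through kinetochores. The spindle checkpoint holds the anaphase promoting complex (APC/C) in check until all chromosomes are attached. Most of these genes are transcribed in a late wave of the cell cycle through NF-Y at CCAAT boxes and through the MuvB complex, with B-Myb (encoded by Mybl2) and Foxm1, at the cell cycle genes homology region (CHR). In a bulk sample a larger share of cells in G2 and mitosis and more RNA per cell cannot be told apart.

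Values are the authors' median-normalized RSEM estimates of reads per gene. Fold is the mean of the knockdowns divided by that of the controls, and log2 fold change (log2FC) is the knockdown mean minus the control mean of log2(value + 1), with its moderated standard error (SE), n = 3 each; it understates the change of low genes. A gene is said to have risen or fallen when its adjusted p was under 0.05 (limma, Benjamini-Hochberg over all tested genes). Nothing in the labels ties the numbered replicates to separate cultures, and the p-values therefore measure only how these samples vary, which may be technical. An exact two-sided permutation test of 3 samples against 3 cannot go below p = 0.1, and none was used for single genes.

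Knockdown replicate 2 stood apart from the rest. Across tested genes its log2 values correlated with the other 5 libraries at 0.821 to 0.867, while those correlated among themselves at 0.944 to 0.993. Deposited totals were about 13100000, 19500000 and 13200000 in knockdown replicates 1, 2 and 3, and 13400000 to 13700000 in the controls. Estimated depth before scaling was lowest in knockdown replicate 2 and control replicate 2, at 4580000 and 5450000 reads, and 15100000 to 51800000 reads in the other 4 libraries. The lowest value of any of the 55 genes still corresponded to about 37 reads in knockdown replicate 2 and 21 reads in control replicate 2. Rnf2 had 129, 76.5 and 152 in the knockdowns against 815, 829 and 799 in the controls (log2FC −2.82, SE 0.28, limma adjusted p = 0.00946). Ring1 had 162, 268 and 186 in the knockdowns against 336, 386 and 374 in the controls (log2FC −0.86, SE 0.23, limma adjusted p = 0.104). Both were lower in every knockdown. Without knockdown replicate 2 limma called both lower (log2FC −2.53 to −1.06), as it did 26.1% of tested genes. The 12 mesenchymal markers checked, such as Col1a1 and Vim, were all expressed. Their summed value was 313409 to 466269 in the knockdowns and 413858 to 437343 in the controls. Singly they differed in both directions, with log2FC from −1.50 (Pdgfra) to 1.79 (Ly6a), and limma called 1 higher and 0 lower. In the 5-library fit that left out knockdown replicate 2, limma called 8 of these markers higher and 3 lower, beside 23.8 and 26.1% of tested genes. The summed values of the 6 epithelial markers were 17.1 to 42.5 in the knockdowns and 15.0 to 31.6 in the controls, those of the 6 leukocyte markers 76.7 to 187 in the knockdowns and 87.6 to 114 in the controls, and those of the 5 endothelial markers 111 to 166 in the knockdowns and 97.7 to 110 in the controls. Most of the leukocyte sum was Cd14, with Cd3e at 0 in all libraries and Ptprc at 0 in all but knockdown replicate 1. Most of the endothelial sum was Tek, which rose without knockdown replicate 2 (log2FC 0.57, SE 0.14, limma adjusted p = 0.00474), while Pecam1, Cdh5 and Kdr stayed at or below 6.22 in each library. The part of other cell types in the results was not tested. What part the state of knockdown replicate 2 has in the results was not tested, and results are given with and without it.

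The mitotic genes were higher in the knockdown almost throughout. Of the 55 genes 33 rose and 0 fell, or 60.0% risen, beside 3.2% of all tested genes that rose and 1.78% that fell (limma); at an unadjusted p under 0.05, 48 were higher and 0 lower, beside 10.8 and 9.7% of tested genes. The median log2FC of the 55 was 1.32, against 0.01 over all tested genes. All 3 knockdowns lay above all 3 controls in 48 of the 55, where the same held for 20.5% of tested genes, and below them in Cdc25b alone, as in 23.7% of tested genes. The fold exceeded 2 in 46 of the 55 and in 13.1% of tested genes. In the fit without knockdown replicate 2, 54 rose and Cdc25b fell, beside 23.8% of tested genes that rose and 26.1% that fell, and the median log2FC was 1.38. Both remaining knockdowns then lay above all controls in 54 genes and below them in Cdc25b, against 32.1 and 35.8% of tested genes. There 52 of the 55 exceeded a 2-fold rise, as did 7.11% of tested genes. The number of calls changed with the other libraries as well: without control replicate 1, 2 or 3 or knockdown replicate 1 limma called 0 of the 55, and without knockdown replicate 3 it called 5. Over all tested genes, 0 rose without a control, 0.0579% without knockdown replicate 1 and 0.306% without knockdown replicate 3. At an unadjusted p under 0.05, 44, 44 and 43 of the 55 were higher without control replicate 1, 2 or 3, beside 7.67, 7.64 and 7.34% of tested genes. At the same cutoff 45 were higher without knockdown replicate 1 and 45 without knockdown replicate 3, beside 8.6 and 9.97% of tested genes. Over the 6 fits that left out 1 library, the median log2FC stayed between 1.24 and 1.39. Scaling each library to the same total left 13 of the 55 called higher, beside 1.52% of tested genes, with a median of 1.18 against −0.14 over all tested genes. Exons of 11 of the 55 (Ccna2, Cdc20, Cdc25b, Cdc25c, Cdca8, Kif20a, Kif4, Ncapg, Nusap1, Prc1 and Ube2c) overlap a protein-coding gene on the opposite strand, and reads of such pairs cannot be told apart when the strand setting is unknown.

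**Figure D1:**
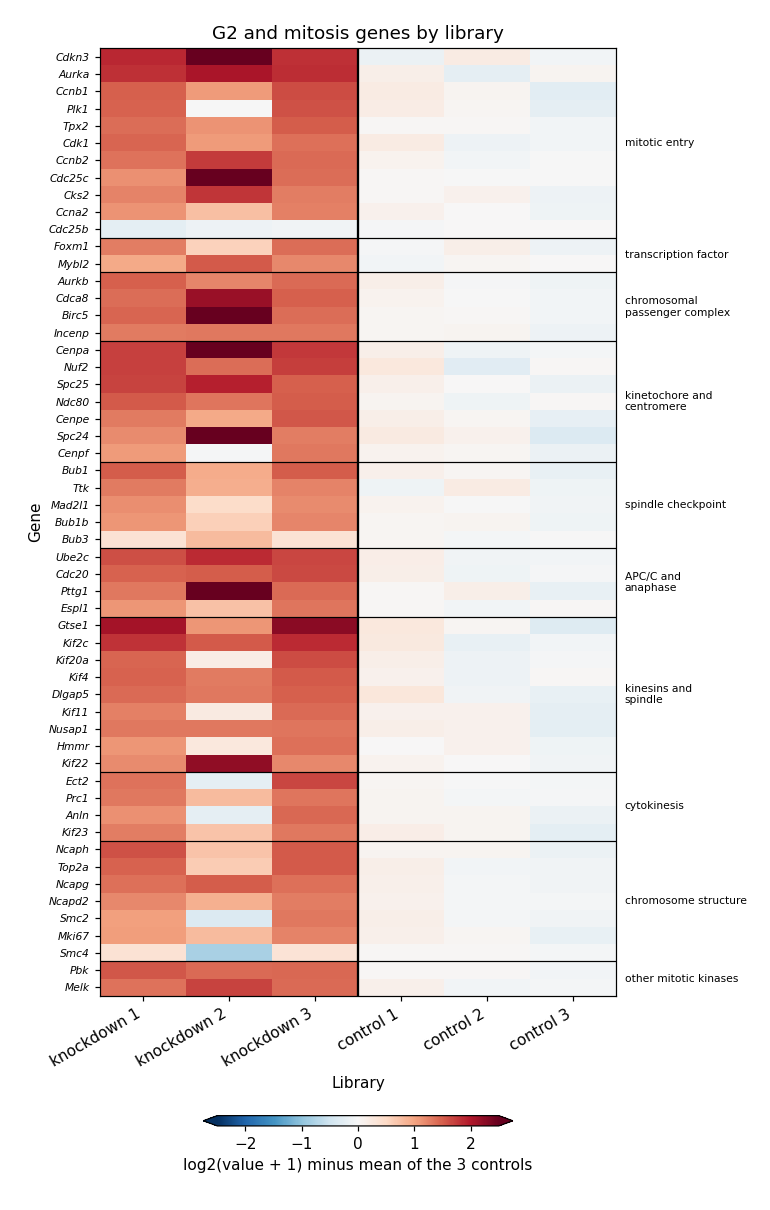
Each row is a gene, grouped by role, and each column a library; colour is log2(value + 1) minus the mean of the 3 controls, and colours saturate beyond 2.5. Knockdown replicates 1 and 3 are raised in 54 of the 55 genes, while knockdown replicate 2 ranges from −0.82 to 3.63.

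Seen library by library, the rise was nearly the same in knockdown replicates 1 and 3. Relative to the control mean, the median of the 55 log2 differences was 1.35 in knockdown replicate 1, 1.10 in knockdown replicate 2 and 1.41 in knockdown replicate 3. Knockdown replicates 1 and 3 each exceeded all controls in 54 genes, and knockdown replicate 2 in 48. Between knockdown replicates 1 and 3 the genes differed by a median of 0.08 log2 units and at most 0.31. The summed values of the 55 genes made up 0.389, 0.232 and 0.415% of the library total in knockdown replicates 1, 2 and 3, against 0.175, 0.161 and 0.151% in controls 1, 2 and 3. The controls differed among themselves as well: control replicate 1 was the highest control in 44 of the 55 genes and control replicate 3 the lowest in 35, with a median range of 0.24 log2 units.

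The start regions of 6 of these genes are shown because their CCAAT and CHR letters are the elements through which mitotic genes are known to be transcribed together. RefSeq windows (build GRCm38.p6) run from 250 bases before to 50 bases after the annotated start, 5′ to 3′ on the gene's strand. Capitals mark CCAAT and the CHR forms TTTGAA and TTCGAA, searched on both strands, so that ATTGG and TTCAAA are the same motifs on the other strand; in Ube2c a pair of CCAAT matches overlap in CCAATTGG.
Cdk1 (chr10:69352863-69353162, minus strand): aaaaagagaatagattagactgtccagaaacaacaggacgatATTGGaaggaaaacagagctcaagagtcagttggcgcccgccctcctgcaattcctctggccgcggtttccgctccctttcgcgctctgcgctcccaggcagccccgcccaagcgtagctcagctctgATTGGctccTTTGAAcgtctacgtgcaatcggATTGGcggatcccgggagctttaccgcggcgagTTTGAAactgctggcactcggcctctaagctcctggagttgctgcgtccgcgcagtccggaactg
Ccnb1 (chr13:100786437-100786736, minus strand): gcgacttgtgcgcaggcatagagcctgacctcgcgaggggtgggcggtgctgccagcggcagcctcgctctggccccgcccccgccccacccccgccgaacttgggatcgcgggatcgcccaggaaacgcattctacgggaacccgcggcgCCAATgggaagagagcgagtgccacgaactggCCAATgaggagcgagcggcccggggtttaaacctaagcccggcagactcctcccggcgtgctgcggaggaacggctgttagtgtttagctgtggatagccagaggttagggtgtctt
Plk1 (chr7:122159185-122159484, plus strand): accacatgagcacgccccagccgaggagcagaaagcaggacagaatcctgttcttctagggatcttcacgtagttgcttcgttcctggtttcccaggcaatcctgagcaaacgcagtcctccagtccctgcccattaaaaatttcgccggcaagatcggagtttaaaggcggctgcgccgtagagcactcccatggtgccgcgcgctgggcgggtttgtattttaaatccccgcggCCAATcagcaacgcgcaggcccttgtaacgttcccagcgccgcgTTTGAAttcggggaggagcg
Aurka (chr2:172370521-172370820, minus strand): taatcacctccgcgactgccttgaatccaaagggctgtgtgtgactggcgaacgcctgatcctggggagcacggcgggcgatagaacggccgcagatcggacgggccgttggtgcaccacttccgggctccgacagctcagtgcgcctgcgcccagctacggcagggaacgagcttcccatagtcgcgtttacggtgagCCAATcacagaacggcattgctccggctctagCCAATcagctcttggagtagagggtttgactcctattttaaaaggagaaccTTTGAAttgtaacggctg
Ube2c (chr2:164769679-164769978, plus strand): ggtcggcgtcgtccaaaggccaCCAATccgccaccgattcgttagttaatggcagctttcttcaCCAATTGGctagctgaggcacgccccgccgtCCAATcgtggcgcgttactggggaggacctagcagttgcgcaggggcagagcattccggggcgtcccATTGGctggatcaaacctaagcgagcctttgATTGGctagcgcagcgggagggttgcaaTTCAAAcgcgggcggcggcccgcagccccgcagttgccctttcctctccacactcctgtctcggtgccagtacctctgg
Cdc20 (chr4:118437294-118437593, minus strand): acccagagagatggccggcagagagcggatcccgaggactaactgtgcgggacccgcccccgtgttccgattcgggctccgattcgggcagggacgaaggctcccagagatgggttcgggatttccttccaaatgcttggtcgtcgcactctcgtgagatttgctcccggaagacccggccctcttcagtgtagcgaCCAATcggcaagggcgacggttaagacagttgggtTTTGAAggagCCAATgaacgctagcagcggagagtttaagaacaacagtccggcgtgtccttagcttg
In these windows TTTGAA lay at −71 and −15 in Cdk1 (first base, counted from the start), at −18 in Cdc20 and at −29 in Ube2c. In Plk1 it lay at 31 and in Aurka at 33, while the Ccnb1 window held 2 CCAAT matches and neither CHR form.

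RefSeq windows were at hand for 44 of the 55 genes, 48 windows in all. CCAAT was found in 37 of them (77.1%) and TTTGAA in 33 (68.8%), against 38.2 and 11.8% of the 11114 windows of tested genes and 37.4 and 17.9% of all 32851 windows. TTCGAA was in 8.33% of the windows of mitotic genes and in 1.56% of all. Of 42 TTTGAA matches in mitotic genes 69.0% began within the last 50 bases before the start or after it, against 25.3% of the 6737 matches in all windows. Within the group, median fold changes were close in genes with both motifs and in the other genes, some of which held CCAAT or a CHR form alone. Without knockdown replicate 2 the median log2FC was 1.38 in the 29 genes with both CCAAT and a CHR form and 1.42 in the other 15. In the fit of all 6 libraries 17 and 10 of them rose, beside 3.2% of all tested genes. A match describes the letters of a window and shows no binding.

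**Figure D2:**
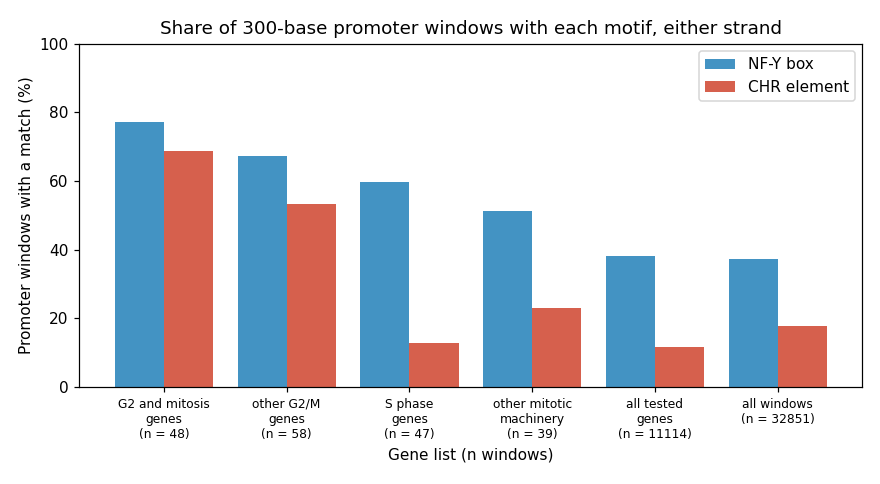
Bars give the percentage of 300-base promoter windows with at least 1 match, on either strand, to the NF-Y box (CCAAT) and the CHR element (TTTGAA). The CHR element is in 68.8% of windows of the G2 and mitosis genes and in 12.8% of those of S phase genes.

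Genes of mitotic entry rose in 8 of 11 cases, and 0 fell. Here and in the role groups below, the share of all tested genes that rose was 3.2% with all 6 libraries. It was 23.8% without knockdown replicate 2. The Aurora kinase gene Aurka, whose product matures centrosomes and activates Plk1, had 677, 787 and 684 in the knockdowns against 208, 163 and 199.7 in the controls, a 3.76-fold rise (log2FC 1.91, SE 0.17, limma adjusted p = 0.00809). Its spindle activator Tpx2 had 1766, 1446 and 1903 in the knockdowns against 685, 684 and 633 in the controls (2.55-fold). The B-type cyclin gene Ccnb2 had 576, 757 and 594 in the knockdowns and 237, 213 and 221 in the controls (2.87-fold, log2FC 1.51, SE 0.17, limma adjusted p = 0.0116). The groups were well apart in each, and in Tpx2 knockdown replicate 2 was the lowest knockdown while in the others it was the highest. Cyclin B1 (Ccnb1, 2.65-fold), its kinase partner Cdk1 (2.48-fold), cyclin A2 (Ccna2, 2.09-fold) and the Cdk1-binding subunit Cks2 (2.75-fold) also rose.

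Cdkn3, which encodes a phosphatase that removes the activating phosphate from cyclin-dependent kinases, had the largest log2FC of the 55 (2.29, SE 0.39, limma adjusted p = 0.0345). It had 171, 408 and 165 in the knockdowns against 41.3, 52.6 and 43.3 in the controls, so that knockdown replicate 2 was far above the others. Without that library the log2FC was 1.86 (SE 0.16). In the authors' deposited table of 323 genes changed at least 4-fold, Cdkn3 and Cenpa were those of the 55 that were listed, with deposited folds of 5.52 and 4.97. By the fold used here Pttg1 (5.86), Birc5 (4.58) and Cdc25c (4.04) also exceeded 4, and they were not listed. Without knockdown replicate 2 the folds of Cdkn3 and Cenpa were 3.67 and 3.33.

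The Polo kinase gene Plk1 and the phosphatase genes Cdc25c and Cdc25b did not pass. Plk1 had 801, 285 and 869 in the knockdowns and 326, 296 and 245 in the controls (limma adjusted p = 0.281): replicates 1 and 3 were high, and replicate 2 lay among the controls. Cdc25c, a Cdk1 activator, had 125, 404 and 148 in the knockdowns against 57.2, 55.1 and 55.1 in the controls (limma adjusted p = 0.099), with replicate 2 far above the others. Both passed without that library, with log2FC of 1.54 (SE 0.11) for Plk1 and 1.27 (SE 0.15) for Cdc25c. Cdc25b, which starts Cdk1 activation at the centrosome, had the most negative log2FC of the 55, with 864, 944 and 969 in the knockdowns and 1006, 1035 and 1041 in the controls (log2FC −0.15, SE 0.13, limma adjusted p = 0.504). Its knockdown values were all below the controls and close to each other, and without knockdown replicate 2 it fell slightly (log2FC −0.17, SE 0.06, limma adjusted p = 0.0439).

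Of the 2 transcription factor genes of this program, 1 rose. Mybl2, which encodes B-Myb, rose 2.39-fold, with 278, 417 and 332 in the knockdowns and 137, 148 and 145 in the controls (log2FC 1.23, SE 0.20, limma adjusted p = 0.0276). Foxm1 had 987, 608 and 1067 in the knockdowns and 401, 449 and 375 in the controls (log2FC 1.08, SE 0.25, limma adjusted p = 0.0804). All 3 Foxm1 knockdown values lay above the controls, with replicate 2 the lowest of them; without that library its log2FC was 1.33 (SE 0.08, limma adjusted p = 1.46e-07).

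Of the chromosomal passenger complex, which corrects faulty attachments and directs cytokinesis, 3 of 4 genes rose. The scaffold gene Incenp had the closest knockdown values of the 4, with 1393, 1411 and 1420.5 in the knockdowns against 588, 599.8 and 523 in the controls (2.47-fold, log2FC 1.31, SE 0.14, limma adjusted p = 0.00969). The kinase gene Aurkb had 619, 514 and 588 in the knockdowns and 243, 215 and 203 in the controls. The Borealin gene Cdca8 had 716, 1216 and 762 in the knockdowns and 286, 268 and 257 in the controls. Both rose, 2.6-fold and 3.32-fold (limma adjusted p = 0.0127 and 0.0214). Birc5, which encodes Survivin, had 818, 2487 and 778 in the knockdowns and 309, 301 and 281 in the controls (limma adjusted p = 0.0847). Replicate 2 of Birc5 lay far above the other knockdowns; without that library the 4 genes lay within log2FC 1.30 (Incenp) to 1.45 (Aurkb), with Birc5 at 1.42 (SE 0.07).

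Kinetochore and centromere genes rose in 5 of 7 cases. Cenpa, the histone H3 variant that marks the centromere, had 531, 1292 and 551 in the knockdowns and 180.2, 150.3 and 156 in the controls (4.88-fold, log2FC 2.15, SE 0.38, limma adjusted p = 0.0367), and 3.33-fold without knockdown replicate 2. Replicate 2 was again the highest knockdown. The Ndc80 complex, which grips spindle microtubules, has 4 subunits. Ndc80 had 493, 429 and 483 in the knockdowns against 178, 158 and 172 in the controls (2.77-fold). Spc25 had 535, 642 and 468 in the knockdowns and 181, 168 and 151 in the controls (3.29-fold). Nuf2 had 587, 472 and 593 in the knockdowns and 215, 145 and 182 in the controls (3.05-fold). These 3 subunit genes rose (limma adjusted p = 0.00946, 0.00995 and 0.016), with every knockdown more than 2-fold above the highest control.

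The remaining subunit gene Spc24 had 242, 654 and 258 in the knockdowns and 123, 114 and 83.5 in the controls, and did not pass (limma adjusted p = 0.0961). Without knockdown replicate 2 its log2FC was 1.24 (SE 0.16), the lowest of the 4 subunits, and Nuf2 the highest at 1.72 (SE 0.14). Cenpe, a kinetochore motor, rose 2.44-fold. Cenpf, a large kinetochore protein, had 920.4, 428 and 1095 in the knockdowns against 467, 454 and 395 in the controls (limma adjusted p = 0.3), so knockdown replicate 2 lay inside the control range while the other knockdowns lay far above it; without replicate 2 Cenpf rose 2.3-fold (limma adjusted p = 1.36e-06).

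Of the spindle checkpoint genes, 2 of 5 rose and 0 fell. Ttk, the kinase that recruits the checkpoint to kinetochores, had 276, 213 and 267 in the knockdowns and 104, 130.3 and 105 in the controls (2.23-fold, limma adjusted p = 0.0315). The kinase gene Bub1 had 574, 378 and 571 in the knockdowns and 219, 205 and 176 in the controls (2.54-fold, limma adjusted p = 0.0332). Bub1b, which encodes the APC/C inhibitor BubR1, had 772, 544 and 841 in the knockdowns against 371, 378 and 332 in the controls (limma adjusted p = 0.0615). In all 5 the knockdowns lay above all controls, as in 20.5% of tested genes. Mad2l1, another gene of the checkpoint, had 536, 327 and 546 in the knockdowns against 254, 238 and 226 in the controls (limma adjusted p = 0.0997). Bub3, an adaptor of the checkpoint kinases, differed least, with 1416, 1892 and 1401 in the knockdowns and 1137, 1062 and 1096 in the controls (log2FC 0.50, SE 0.17, limma adjusted p = 0.179). Without knockdown replicate 2 Bub1b and Mad2l1 had log2FC of 1.16 (SE 0.08) and 1.18 (SE 0.08), and Bub3 0.36 (SE 0.05). All 3 passed in that fit, in which 23.8% of tested genes rose.

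On the side of anaphase, 3 of 4 genes rose. Ube2c, the ubiquitin-conjugating enzyme of the APC/C, had 794, 957 and 835 in the knockdowns and 291, 246 and 247 in the controls (3.3-fold, log2FC 1.72, SE 0.16, limma adjusted p = 0.00881). Cdc20, which activates the APC/C, had 1389, 1424 and 1563 in the knockdowns against 552, 459 and 484 in the controls (2.93-fold, log2FC 1.55, SE 0.15, limma adjusted p = 0.00894). Knockdown replicates were close to each other in both. Espl1, the separase that cleaves cohesin, had 699, 539.7 and 826 in the knockdowns against 332, 311 and 329 in the controls (2.12-fold). Its inhibitor securin, encoded by Pttg1, had 299, 1492 and 319 in the knockdowns against 122, 133 and 105 in the controls and did not pass (limma adjusted p = 0.145). That value in replicate 2 was the largest departure among the 55 genes, 2.27 log2 units above the mean of replicates 1 and 3; without it Pttg1 had a log2FC of 1.36 (SE 0.12).

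Kinesins and other spindle genes rose in 5 of 9 cases. Kif2c, a kinesin that depolymerizes microtubules at the centromere, had 772, 642 and 808 in the knockdowns and 262, 193 and 210.5 in the controls (3.34-fold, log2FC 1.74, SE 0.19, limma adjusted p = 0.0102). The chromokinesin gene Kif4 had 617, 548 and 644 in the knockdowns against 241, 203 and 226 in the controls (2.7-fold). Nusap1, a microtubule bundler, had 585, 582 and 596 in the knockdowns and 258, 253 and 197 in the controls (2.49-fold). In all 3 the lowest knockdown was more than 2-fold above the highest control. Dlgap5, which stabilizes kinetochore fibres, rose 2.63-fold, and Gtse1, which binds microtubules and restrains p53, rose 3.68-fold and only just passed (limma adjusted p = 0.0496). When knockdown replicate 2 was left out, Gtse1 had the largest log2FC of the 55, 2.17 (SE 0.16), a 4.47-fold rise.

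The other 4 spindle genes did not pass with all libraries. Kif20a, a motor of the spindle midzone, had 1549, 644 and 1741 in the knockdowns against 627, 518 and 553 in the controls (limma adjusted p = 0.208). Kif11, which pushes spindle poles apart, had 966, 476 and 1082 in the knockdowns and 437, 439 and 347 in the controls (limma adjusted p = 0.197). Hmmr, a spindle assembly factor, had 955, 538 and 1158 in the knockdowns against 449, 481 and 412 in the controls (limma adjusted p = 0.175). In these 3 genes replicate 2 was the lowest knockdown and sat just above the controls. The chromokinesin gene Kif22 showed the reverse, with 482, 986 and 489 in the knockdowns against 225, 213 and 200.1 in the controls (limma adjusted p = 0.0551). Without knockdown replicate 2 the 4 had log2FC between 1.19 for Kif22 and 1.54 for Kif20a, and passed, while 23.8% of tested genes rose.

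Of 4 genes of cytokinesis 1 rose, the midzone bundler Prc1, with 1228, 855 and 1258 in the knockdowns and 520.1, 479 and 485 in the controls (2.25-fold, log2FC 1.15, SE 0.20, limma adjusted p = 0.0333). Its partner kinesin Kif23 had 513, 349 and 529 in the knockdowns against 237, 223 and 179.9 in the controls (limma adjusted p = 0.0567). Ect2, the exchange factor that activates RhoA, had 469, 157 and 583 in the knockdowns and 190.1, 183 and 177 in the controls (limma adjusted p = 0.349). Replicate 2 of Ect2 was below every control. The same held for the ring scaffold gene Anln, with 1739.8, 672 and 2135 in the knockdowns against 828, 827 and 708 in the controls (limma adjusted p = 0.37). Without replicate 2 all 4 passed, with log2FC from 1.29 for Kif23 and Anln to 1.51 for Ect2, while 23.8% of tested genes rose.

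Genes of chromosome structure rose in 3 of 7 cases. The proliferation marker Mki67, which coats mitotic chromosomes, had 3218, 2704 and 3689.7 in the knockdowns and 1692, 1614 and 1370.3 in the controls (2.06-fold, log2FC 1.03, SE 0.18, limma adjusted p = 0.0341). Of condensin I, which compacts chromosomes, Ncapg had 515, 569.7 and 516 in the knockdowns against 217, 190.4 and 187 in the controls (2.69-fold). Ncapd2 had 1374, 1105 and 1459 in the knockdowns and 639, 576 and 577 in the controls (2.2-fold). Both subunit genes rose, and the knockdowns lay well above the controls. The kleisin subunit gene Ncaph had 878, 476 and 846 in the knockdowns and 307, 306 and 264 in the controls (limma adjusted p = 0.0639). The topoisomerase gene Top2a, whose product untangles sister chromatids, had 4318, 2415 and 4508 in the knockdowns and 1729.6, 1476 and 1473 in the controls (limma adjusted p = 0.0757). Neither overlapped the controls, and without knockdown replicate 2 both rose, Ncaph 2.95-fold and Top2a 2.83-fold.

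The core ATPase genes of condensin stood lower in knockdown replicate 2. Smc2 had 1415, 548 and 1745 in the knockdowns against 767, 674 and 650.4 in the controls (limma adjusted p = 0.425). Smc4 had 1646, 727 and 1635 in the knockdowns and 1310.3, 1303 and 1240.0 in the controls (log2FC −0.04, SE 0.35, limma adjusted p = 0.948). For both, replicate 2 lay below all controls and the other knockdowns above. Without it Smc2 had a log2FC of 1.18 (SE 0.10) and Smc4 of 0.35 (SE 0.05, limma adjusted p = 0.000169), so that the sign for Smc4 turned. The other 4 condensin I genes then lay between 1.18 and 1.56.

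Both further mitotic kinase genes rose. Pbk had 538, 489 and 491 in the knockdowns against 187, 185 and 174 in the controls (2.78-fold, log2FC 1.47, SE 0.14, limma adjusted p = 0.00894). Melk had 443, 553 and 458 in the knockdowns and 187, 163 and 166 in the controls (2.81-fold, log2FC 1.48, SE 0.16, limma adjusted p = 0.0109). In both, the lowest knockdown lay more than 2-fold above the highest control.

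**Figure D3:**
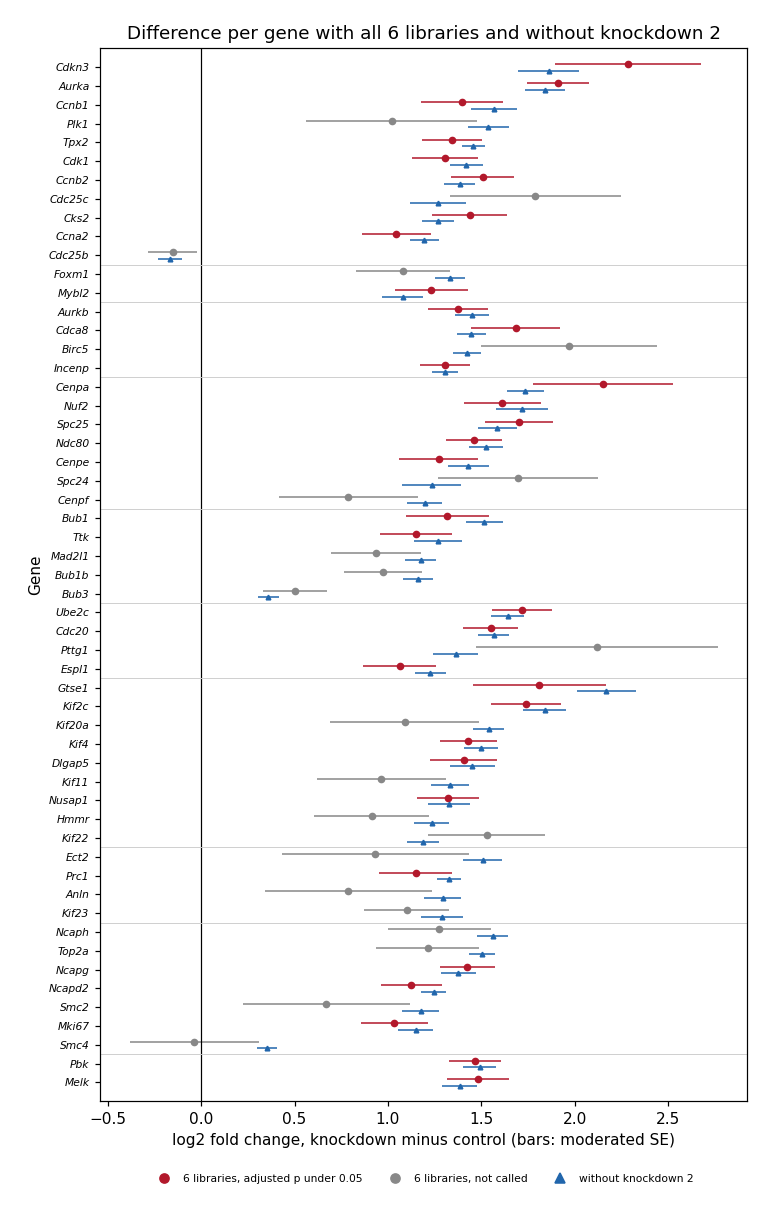
Circles give the log2 fold change of each gene over all 6 libraries (red where it passed, grey where it did not) and triangles that without knockdown replicate 2; bars are moderated standard errors. Without that library 52 of the 55 genes lie above a 2-fold rise, and Smc4, Bub3 and Cdc25b lie below it.

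Knockdown replicate 2 differed from the mean of knockdown replicates 1 and 3 by −1.73 to 2.27 log2 units over the 55 genes, with a median of −0.32, and this distance enters the spread that decides each call. It was above both other knockdowns in 17 of the 55 genes, below both in 35 and between them in 3. Without it, the 22 genes not called with all libraries had a median log2FC of 1.28 and the 33 called of 1.45. The departure went with transcript length, taken as the longest protein-coding transcript in GENCODE M21: over the 55 genes the Spearman correlation was −0.62, as over the 10893 tested genes with a length (−0.61). Genes share libraries and are not independent, so these are descriptions. The 27 shorter genes differed by a median of 0.04 in that library and the 28 of at least 3236 nt by −0.53. With all libraries 20 and 13 of them rose, beside 3.2% of all tested genes. The difference without knockdown replicate 2 also went with length, less strongly (Spearman −0.40 over the 55), with medians of 1.49 in the shorter and 1.32 in the longer genes. A correction for length, chosen after seeing the data, gave 45 rises and 0 falls among the 55, beside 6.45% of the 10893 genes that rose and 6.22% that fell.

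**Figure D4:**
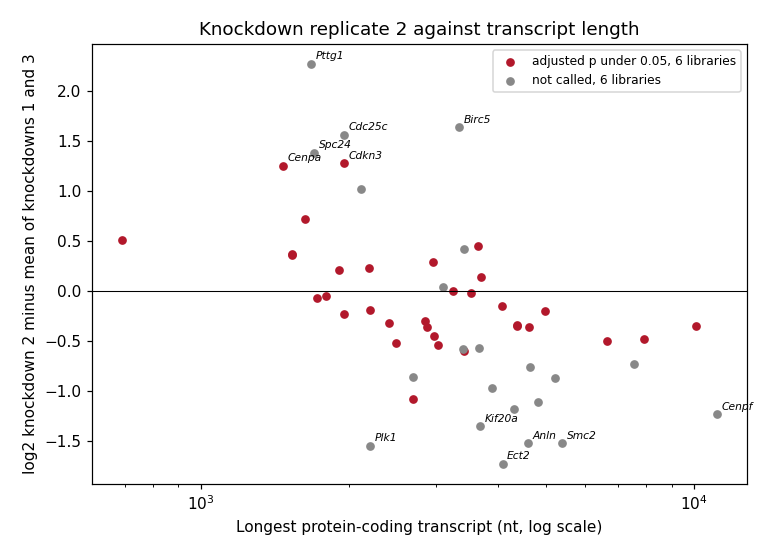
Each point is 1 of the 55 genes; the x axis is the longest protein-coding transcript in nt on a log scale and the y axis the log2 value in knockdown replicate 2 minus the mean of knockdown replicates 1 and 3. Points run from Pttg1 at 2.27 down to Ect2 at −1.73; colour marks genes called (red) and not called (grey) with all 6 libraries, a call that the distance on the y axis itself affects.

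Levels per kilobase of that transcript allow a rough comparison between genes. The transcript expressed may be shorter than the longest, and the knockdown means include replicate 2, whose departure went with length. In the controls they ran from 23.4 per kb for Cdkn3 to 381 per kb for Cks2, and in the knockdowns from 62.2 per kb for Mad2l1 to 1047 per kb for Cks2. Cdkn3, with the lowest control level, had 127 per kb in the knockdowns. The genes with the smallest differences were well expressed: Cdc25b had 299.6 per kb in the knockdowns and 333 per kb in the controls. Smc4 had 309.5 per kb in the knockdowns and 298 per kb in the controls, and Bub3 had 459.8 per kb in the knockdowns and 322 per kb in the controls.

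Other cell cycle genes were set beside these. Of 60 further genes of G2 and mitosis, 23 rose (38.3%) and 0 fell, with a median log2FC of 1.10. Ccnf, which encodes cyclin F, had 623, 727 and 636 in the knockdowns and 223, 205 and 192 in the controls (log2FC 1.67, SE 0.15, limma adjusted p = 0.00881). The minus-end kinesin gene Kifc1 rose 3.14-fold, Shcbp1, which acts at the midbody, 2.84-fold and Fam64a 3.65-fold. Of 51 genes of DNA replication and S phase, 16 rose (31.4%) and 0 fell, with a median log2FC of 1.04. Mcm5, a subunit of the replicative helicase, had 1337, 1369 and 1403 in the knockdowns against 582, 463 and 466 in the controls (log2FC 1.45, SE 0.15, limma adjusted p = 0.00995). The histone chaperone genes Asf1b and Chaf1a rose 2.63-fold and 2.76-fold, and Uhrf1, which guides maintenance DNA methylation, 2.56-fold. At an unadjusted p under 0.05, 43 of the 60 and 42 of the 51 were higher and 0 of either list lower, beside 10.8% of tested genes that were higher and 9.7% lower.

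A further list held mitotic genes taken as outside the late wave, and it was chosen with earlier results of these data known. Its 45 genes include those of APC/C subunits, cohesin, MuvB, outer kinetochore, centrosome and mitotic phosphatases, and also Wee1 and Mad1l1. Of the 45, 1 rose and 0 fell, 2.22%, beside the 3.2% of all tested genes, with a median log2FC of 0.02. At an unadjusted p under 0.05 in limma, 6 were higher and 1 lower, beside 10.8 and 9.7% of tested genes. The gene that rose was Nsl1, a subunit of the Mis12 kinetochore complex, with 233, 199 and 214 in the knockdowns and 106, 110.5 and 82.5 in the controls (2.16-fold, log2FC 1.11, SE 0.19, limma adjusted p = 0.0318). In the fit of the other 5 libraries, 20 of the 45 rose and 6 fell with a median of 0.13, while 59 of the 60 and 49 of the 51 rose, with medians of 1.32 and 0.93; over all tested genes of that fit 23.8% rose and 26.1% fell. The largest of those 20, named after their values were seen, were Kntc1 and Zwilch of the checkpoint complex that recruits dynein, at 1.52 (SE 0.10) and 1.41 (SE 0.12). The difference between these lists was not tested. TTTGAA was in 53.4% of the windows of the 60 genes, 12.8% of those of S phase genes and 23.1% of those of the 45.

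**Figure D5:**
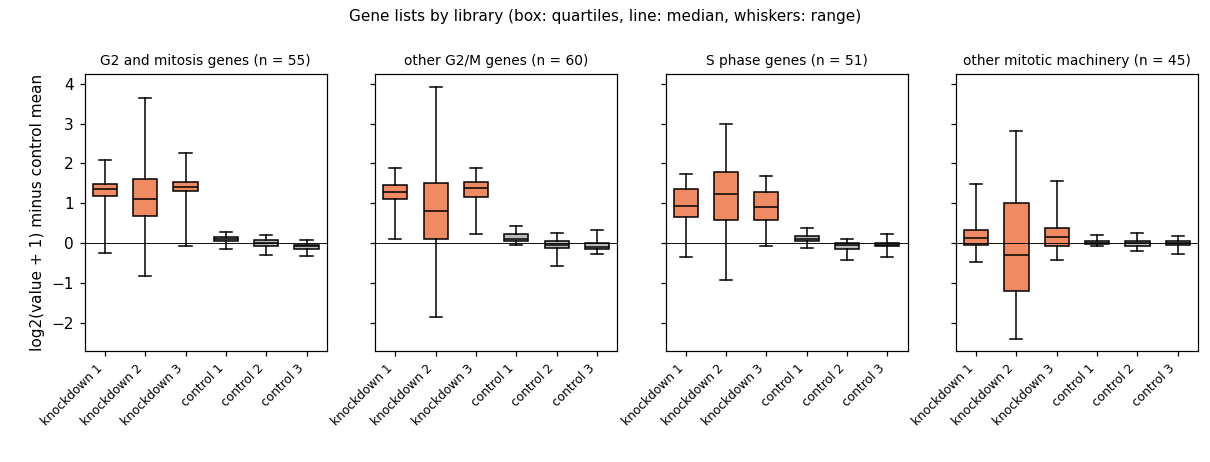
Boxes show, per library, the log2(value + 1) minus the control mean over the genes of each list (quartiles, median and full range). The medians of the 55 G2 and mitosis genes are 1.35, 1.10 and 1.41 in knockdown replicates 1, 2 and 3, and those of the 45 other mitotic genes 0.13, −0.31 and 0.14.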

How the data were processed

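RNA was sequenced from 3 C3H10T1/2 samples treated with siRNAs against Ring1a and Ring1b and 3 treated with scrambled siRNA. Trizol extraction and Illumina TruSeq libraries are stated per the labels' protocols; Bowtie 1.0.0, RSEM 1.2.12 and build mm9 stand in the submitters' processing notes. Annotation and strand setting were not given in the sources used here. The authors deposited a normalized signal per gene and library (estimated counts after median normalization, per the file headers and names) and a second table with a fold ratio of knockdown over control, which the authors deposited for 323 genes. RSEM can split reads between near-identical copies. In GENCODE M21, 16 of the 55 genes have exons that overlap another gene, 11 of them a protein-coding gene on the opposite strand.

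A gene entered the test when its mean across the 6 samples reached 10. The values, as log2(value + 1), were fitted with limma (version 3.58.1, R 4.3.3) for the difference of knockdowns from controls; eBayes used a mean-variance trend and robust fitting, and two-sided p-values were adjusted by Benjamini-Hochberg at 0.05. Depth was estimated by dividing each total by its most frequent low value, taken as 1 read; no count test was run, since the values are estimates. The lowest 3-read floor was 0.777 and the highest 12.8, in knockdown replicate 2; these cover counting error only. Pseudocount, filter, scaling, library weights, a replicate block and each library left out were tried. The genes described, the lists and the rule for naming genes (per role, up to 3 genes with the smallest adjusted p and all that missed the threshold) were chosen with earlier results of these data known.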

Additional observations from a re-analysis of the deposited data

How the results depend on the processing

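Among the 55 genes, a pseudocount of 0.5 or 5, no filter on low values, a filter at a mean of 50 and upper-quartile scaling gave 32 or 33 rises and 0 falls. In these settings 2.58 to 3.28% of all tested genes rose and 1.18 to 1.85% fell. Scaling to the same total gave 13 rises among the 55, 9 among the 60 further G2 and mitosis genes, 6 among the S phase genes and 0 among the 45 other mitotic genes, with 184 rises and 116 falls over all genes; the cause was not tested. Library weights (0.0172 for knockdown replicate 2, 1.45 to 3.14 for the others) gave 54 rises and 1 fall among the 55, 59 rises in the 60, 49 in the S phase genes and 20 rises and 5 falls in the 45, with 3048 rises and 3254 falls over all genes. The length correction, chosen after seeing the data, gave 45 rises in the 55 and 25 in the 51 S phase genes. Of the 60 further genes, 51 had a length and 30 of these rose. Of the 45, 44 had a length, with 3 rises and 1 fall. Over all 10893 genes with a length there were 703 rises and 678 falls.

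Leaving out each library in turn gave 0 to 2855 rises and 0 to 3136 falls over all genes, 0 to 54 rises and 0 to 1 fall among the 55, 0 to 59 rises in the 60, 0 to 49 in the S phase genes and 0 to 20 rises and 0 to 6 falls in the 45. The high ends came from the fit without knockdown replicate 2. Smc4 turned sign: its log2FC of −0.04 became 0.36 with library weights and 0.084 with the length correction, and ran from −0.24 to 0.35 as libraries were left out. With the replicate number as a replicate block, limma gave 0 rises and 0 falls over all genes and in each list, with 46 of the 55 higher at an unadjusted p under 0.05, beside 8.81% of tested genes that were higher and 6.63% lower. Deviations of same-numbered libraries correlated at 0.17, −0.0506 and −0.0507, and those of other pairs at −0.172 to 0.113. Knockdown replicate 2 enters every knockdown deviation through the group mean, so these values cannot decide whether the numbers pair the samples.

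Depth limits the lowest values most in knockdown replicate 2, where 1 read is worth 4.25, yet every one of the 55 genes stood far above its floor of 12.8. With 3 libraries a group, calls of single genes rest on the spread between a few libraries. Leaving out any 1 library changed how many of the 55 were called.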
